A study of Mus musculus with 28 samples.

Results

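The miRNAs described here carry catalogue numbers of 6000 and above (mmu-miR-6238 to mmu-miR-9769-3p), on either arm of the hairpin. They were taken by name alone: every row of the array table with a value in cartilage or in subchondral bone and such a number, except miR-6931-5p and miR-6348, which were left out and are given once for reference. The rule took 165 of 569 rows (29.0%). Of these, 24 had numbers below 6900, 94 from 6900 up to but below 7100, 33 from 7100 up to but below 8000, and 14 were numbered 8000 or above. The number is only the order in which names were given out, so the members share no family by construction.

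Agilent mouse miRNA arrays (release 21), 28 in all, were run on RNA from tissue cut by laser from the medial tibial plateau of male C57BL6 mice. The mice were operated on at 10 to 12 weeks of age and killed 1 or 6 weeks later. Destabilization of the medial meniscus (DMM) transects the ligament that anchors the medial meniscus and leads to osteoarthritis; in the sham operation that ligament was exposed and left whole. Both knees of a mouse had the same operation and 1 of them went to the arrays, so no group held an unoperated joint. The 8 groups were cartilage after sham or DMM at 1 or 6 weeks (3 arrays each, each a pool of 3 mice) and subchondral bone after sham or DMM at 1 or 6 weeks (4 arrays each, each 1 mouse). The labels state that cartilage and bone came from the same mice, but not which bone mouse entered which cartilage pool, so the tissues could not be paired. The treatment text also names Jaffa mice, although every sample carries the strain label C57BL6. One label field calls the cartilage samples bone, while the source field calls them cartilage. The source field was followed: the log2 of the summed signals of 4 miRNAs of the miR-140 and miR-455 hairpins, known from cartilage, was 13.6 to 14.2 in the cartilage arrays. In the bone arrays, where 3 of the 4 have values, it was 9.54 to 10.9.

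A miRNA is cut from a hairpin in a longer transcript, first by Drosha in the nucleus and then by Dicer in the cytoplasm, and either arm (5p or 3p) can be loaded into an Argonaute protein. Bases 2 to 8 of the loaded strand, the seed, pair with target messenger RNAs and lower their output. Many of the mouse miRNAs in this range of numbers entered the catalogue from deep sequencing. Many of them were annotated as mirtrons, short introns that fold into a hairpin and are released by splicing in place of Drosha. Their 5p arms tend to be rich in G and their 3p arms rich in C and U with the AG of the splice acceptor at the end. For most of them no role in cartilage or bone is known.

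Mature sequences of 141 of the 165 members (85.5%) were found in RefSeq (GRCm38.p6); the rest are named only. In these sequences capitals mark the seed. The first 3 are the members with the highest signals in cartilage, and miR-6366 had the highest signal of all rows in both tissues.
miR-6366: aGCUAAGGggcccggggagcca
miR-6368: cUGGGAAGcaguggaggggag
miR-8110: aAGCGUGGauugggggggggg
The next 6 are those that were higher after DMM in cartilage at both weeks.
miR-6918-5p: uGCUGAGGacgggauuagguucu
miR-7118-5p: uGGGGAAGgcgggagagggaac
miR-6904-5p: uCCUGGGGuuagaguugagugg
miR-7082-3p: gCCCCCCUugcugucugucucc
miR-7038-5p: uGUAGAAGgaagggcugcugug
miR-7030-5p: uGGGGAGGuggcugugcuaguc
The last 5 show the widest seed group among the members, and both arms of the hairpin whose arms differed most in signal.
miR-6922-5p: uGUGGGAGgggacuguagagagg
miR-6993-5p: aGUGGGAGaaacgggugucuguc
miR-7008-5p: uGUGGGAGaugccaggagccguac
miR-7047-5p: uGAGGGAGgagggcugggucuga
miR-7047-3p: uCACCCUCacccuuccuccuucc

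Most of the members were 5p arms, and these had a higher median G content than the 3p arms. Of the 165, 98 were 5p arms, 36 were 3p arms and 31 had no arm in the name, whereas RefSeq lists 279 arms of each kind at these numbers. The median G content was 45.5% over the 141 members with a sequence, against 29.4% over all 668 RefSeq sequences numbered 6000 and above and 27.3% over the 325 other array rows with a sequence. The 84 5p members had a median of 47.7% G, and the 29 3p members 21.7%. A run of GGG stood in 100 of the 141 (70.9%), against 249 of 668 (37.3%) in RefSeq at these numbers and 105 of 325 (32.3%) among the other rows. A run of GGGG, which is also a GGG match, stood in 51 members (36.2%), against 106 of 668 (15.9%). Both runs were searched on the mature strand only. These comparisons mix the arms, and the members hold a larger share of 5p arms than RefSeq does. Within 1 arm the gap was smaller. Among 5p arms in the block that starts at 6900, GGG stood in 58 of 69 members (84.1%) and 132 of 174 in RefSeq (75.9%). GGGG stood in 29 (42.0%) and 65 (37.4%) of these. Among the 3p arms of that block, GGG stood in 1 of 14 members (7.14%) and 8 of 173 in RefSeq (4.62%). Of the 3p arms in the block that starts at 6900, 5 of the 14 members with a sequence ended in AG (35.7%), whereas 136 of 173 in RefSeq did (78.6%). The table holds only rows with a value, and no label says which filter chose them.

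The members shared few seeds. The 141 sequences held 131 different seeds, and 9 of these were carried by more than 1 member (19 members in all). The widest group held miR-6922-5p, miR-6993-5p and miR-7008-5p, printed above, whose seed was also that of miR-705 among the other rows. miR-6965-5p and miR-7047-5p shared a seed, as did miR-6368 and miR-6404, and miR-7030-5p and miR-7075-5p. miR-6394 had the seed of miR-125a-5p and miR-125b-5p, a family conserved across animals. Of the seeds, 5 were shared with other measured rows (8 members). None of the 6 miRNAs higher after DMM at both weeks shared its seed with another of the 6.

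In RefSeq, 97 of the 141 members (68.8%) lay on the strand of a protein-coding gene and within its span, against 130 of 325 other rows. For the block that starts at 6900 it was 70 of 83 (84.3%). Whether a site is intronic or exonic was not determined here. miR-6918-5p lies at chr11:4891350-4891372 on the plus strand within Nipsnap1, which encodes a mitochondrial protein. miR-7118-5p lies at chr15:89162882-89162903 on the minus strand within Plxnb2, a receptor for semaphorins. miR-6904-5p lies at chr1:180587206-180587227 on the plus strand within Parp1, an enzyme of DNA repair. miR-7082-3p lies at chr9:21075499-21075520 on the minus strand within Raver1, a partner of the splicing regulator PTB. miR-7038-5p lies at chr5:140427344-140427365 on the plus strand within Eif3b, a translation initiation factor subunit, and miR-7030-5p at chr5:115645578-115645599 on the plus strand within Rab35, a small GTPase of endosomes. miR-6366, at chr16:18165093-18165114 on the minus strand, lay within no protein-coding gene of the table. The messenger RNAs of these genes were not measured on these arrays.

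The members had levels a little below those of the other rows. Levels are log2 signals as deposited, and a probe's signal also depends on its sequence, so the order of levels is an order of signals and not of copies per cell. The table has no detection flag, so which values lie at background cannot be read from it. In cartilage 120 members had values, and their median mean level was 6.12, against 6.35 for the 318 other rows. In bone 143 members had values, with a median of 5.95 against 6.35 for the 347 other rows. Set against each array's own median over all its rows, the median member lay 0.15 lower in cartilage (range over 12 arrays -0.30 to -0.07). In bone it lay 0.30 lower (range over 16 arrays -0.50 in sham mouse 96 at 1 week to -0.01 in sham mouse 68 at 1 week). It was below the array median on all 28 arrays. In cartilage 50 of 120 members (41.7%) had a mean above the array median, against 51.9% of the other rows, and in bone 53 of 143 (37.1%) against 53.0%. Within 1 log2 unit of the array median lay 105 of 120 members in cartilage and 120 of 143 in bone.

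**Figure D1:**
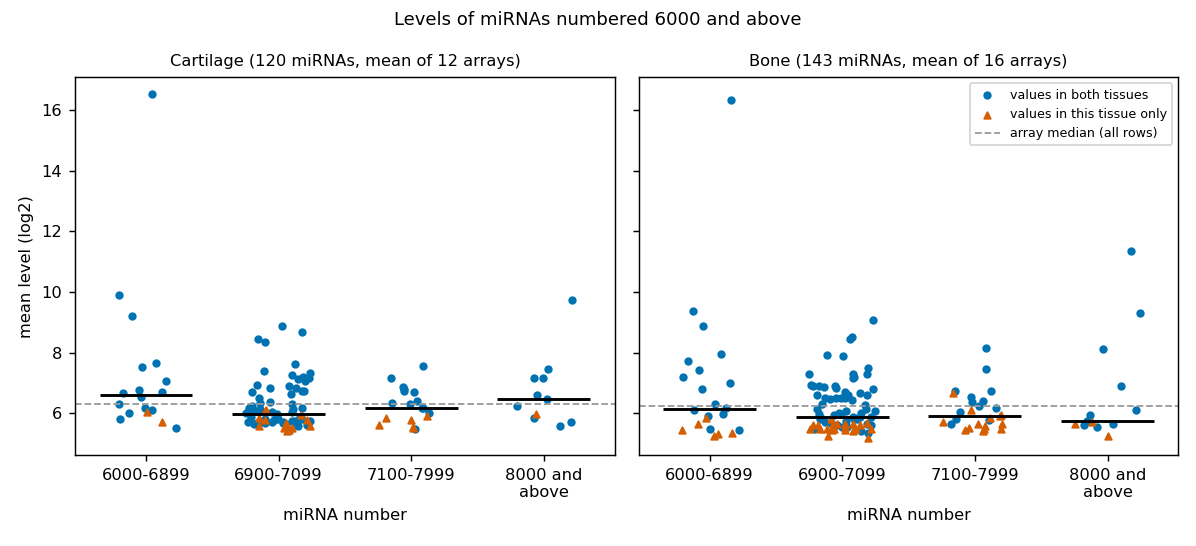
Mean log2 level of each miRNA numbered 6000 and above in cartilage (left, 12 arrays) and subchondral bone (right, 16 arrays), by block of numbers; black bars are block medians and the dashed line is the mean array median over all rows. Most points sit within 1 unit of the dashed line, miR-6366 stands near 16.5 in both tissues, and the miRNAs with values in 1 tissue only (triangles) lie at the bottom.

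A small top group stood apart from this crowd. In cartilage 15 members were above the 75th percentile of all rows and in bone 19. miR-6366 ranked first of all rows in both tissues, with a level of 16.52 ± 0.17 (SD, n = 12) in cartilage and 16.33 ± 0.39 (SD, n = 16) in bone. Its values ranged from 16.19 to 16.74 in cartilage and from 15.06 to 16.74 in bone. The next members in cartilage were miR-6368 at 9.91 ± 0.29 (rank 37), miR-8110 at 9.73 ± 0.28 (rank 40), miR-6769b-5p at 9.21 ± 0.30, miR-7082-5p at 8.87 ± 0.19 and miR-7050-5p at 8.68 ± 0.25 (SD, n = 12 for each). In that order miR-6368 and miR-8110, and miR-7082-5p and miR-7050-5p, differed by less than the larger of their SDs, and the other neighbours by more. In bone miR-8110 followed miR-6366 at 11.36 ± 0.48 (rank 12). Then came miR-6368 at 9.37 ± 0.19, miR-8117 at 9.32 ± 1.00, miR-7015-5p at 9.09 ± 1.03 and miR-6769b-5p at 8.89 ± 0.62 (SD, n = 16 for each), and neighbours among these did not differ beyond the larger of their SDs. The lowest means in cartilage were those of miR-7037-5p (5.40), miR-6948-5p (5.45) and miR-7233-5p (5.47), and in bone those of miR-7081-5p (5.18), miR-6386 (5.24) and miR-6909-5p (5.25).

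Level varied with the block of numbers and with the arm. In cartilage the block from 6900 had a median of 5.99 (33.3% of 72 above the array median). The block below it had 6.61 (61.1% of 18), the block from 7100 had 6.19 (47.4% of 19) and the block from 8000 had 6.47 (54.5% of 11). In bone the same blocks, in that order, had medians of 5.89, 6.14, 5.91 and 5.75. The 5p arms had medians of 6.07 in cartilage (79 miRNAs) and 5.99 in bone (83), and the 3p arms 5.96 (16) and 5.68 (32). Both arms of 12 hairpins were in the table. miR-7047-5p stood at 8.45 in cartilage and 8.51 in bone, and miR-7047-3p at 5.88 and 6.14. miR-7082-5p stood at 8.87 and 7.93, and miR-7082-3p at 6.35 and 6.49. For miR-7241 and miR-7666 the order was the other way in bone: 5.64 on the 5p arm against 6.40 on the 3p arm of miR-7241, and 5.51 against 6.74 for miR-7666. At the edge of the rule, the measured rows just below number 6000 were miR-5622-3p (7.19 in cartilage, 9.35 in bone) and miR-5709-3p (5.86 in bone). Just inside it were miR-6238 (6.29 and 5.44) and miR-6351 (5.35 in bone).

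Within the members, level followed G content weakly. Over the 104 members with a sequence and a value in cartilage, Pearson's r of level with G content was 0.22 and Spearman's rho 0.25, and in bone, over 122, they were 0.25 and 0.32. With U content r was -0.31 and -0.25. Over the other rows r with G content was -0.0011 (n = 260) and 0.02 (n = 277). These are correlations across miRNAs that share arrays and probe chemistry, so they are given as descriptions. The 40 members with at least 50% G had a median level of 6.38 in cartilage, the 35 with 40% up to 50% had 6.12, and the 29 below 40% had 5.88. In bone these medians were 6.34 (44 members), 5.95 (35) and 5.64 (43).

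**Figure D2:**
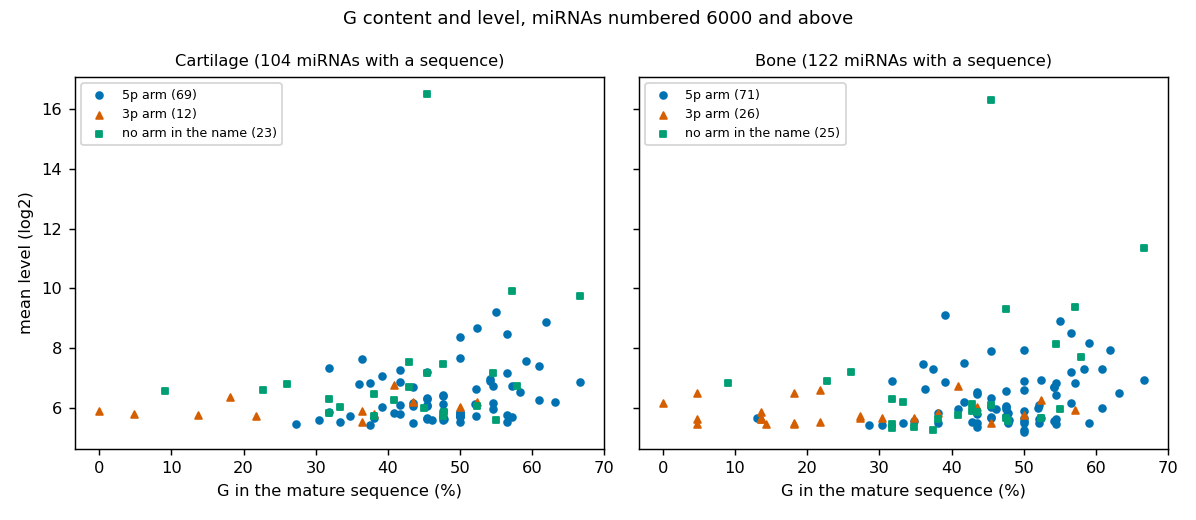
Mean log2 level against the percentage of G in the mature sequence, one point per miRNA, in cartilage (104) and bone (122); circles are 5p arms, triangles 3p arms, squares names without an arm. All but 1 of the levels above 8 occur at a G content above 45% (the exception is miR-7015-5p in bone), and every 3p arm plotted lies below 7.

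Values were present in both tissues for 98 members, in cartilage only for 22 and in bone only for 45. The share in 1 tissue only was 40.6%, against 35.4% of the 404 other rows. The 3p arms leaned to bone: 20 of 36 had values in bone only and 4 in cartilage only, whereas of the 98 5p arms 19 had values in bone only and 15 in cartilage only. Rows with values in 1 tissue were dim. None of the 22 members in cartilage only had a mean above the array median; the highest were miR-6915-5p (6.09), miR-6912-5p (6.07), miR-6404 (6.06), miR-8090 (5.99) and miR-6972-5p (5.95). Of the 45 in bone only, 1 lay above it, miR-7235-5p at 6.68, followed by miR-7219-5p (6.10), miR-7226-5p (5.95), miR-7648-3p (5.91) and miR-7211-3p (5.85). A row with no value in a tissue does not show that the miRNA is absent there.

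For the 98 members in both tissues, the levels went together across miRNAs (r = 0.87, rho = 0.71; r = 0.74 without miR-6366; r = 0.77 over 261 other rows; descriptions, since the probes are shared). Whether the tissues were normalized together is not known, so the levels are set side by side without a test. In 67 of the 98 the means lay within 0.5 of each other after each was set against its array median, and in 14 they lay more than 1 apart. The 5 higher in cartilage were miR-7050-5p (8.68 in cartilage, 6.92 in bone), miR-6370 (7.54, 5.89), miR-6965-5p (8.36, 6.89), miR-7009-5p (7.20, 6.01) and miR-8102 (7.17, 6.09). For each of these no cartilage array overlapped a bone array in the deposited values. The same held for some members less than 1 apart, among them miR-7082-5p (8.87, 7.93) and miR-7033-5p (6.17, 6.52). The share without overlap over all shared rows is not given here. The 9 higher in bone were led by miR-7015-5p, at 6.03 ± 0.27 (n = 12) in cartilage and 9.09 ± 1.03 (n = 16) in bone, again without overlap. The others were miR-8117 (7.47, 9.32), miR-7005-5p (6.08, 7.89), miR-8110 (9.73, 11.36), miR-7040-5p (5.73, 7.18), miR-7042-5p (7.14, 8.45), miR-6378 (6.17, 7.42), miR-6538 (6.72, 7.71) and miR-8101 (7.16, 8.12).

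The spread within groups was larger in bone than in cartilage. Each bone array is 1 mouse and each cartilage array a pool of 3, so tissue and pooling cannot be told apart here. The median within-group SD of the members was 0.16 in cartilage and 0.26 in bone, close to the 0.15 and 0.29 of the other rows. The widest in cartilage were miR-6354 (0.57), miR-6969-5p (0.54) and miR-6404 (0.43), and the narrowest miR-6971-5p (0.05), miR-7033-5p (0.06) and miR-7040-5p (0.06). In bone the widest were miR-7005-5p (1.18), miR-8117 (1.15) and miR-7042-5p (1.03), and the narrowest miR-6999-3p (0.07), miR-7226-5p (0.09) and miR-9769-3p (0.11). The widest bone members moved together. For each of the 10 members with the largest within-group SD in bone, the same 4 arrays gave the 4 highest values: sham mouse 68 at 1 week, sham mouse 22 at 6 weeks, and DMM mice 21 and 25 at 6 weeks. miR-7005-5p stood at 9.70, 9.83, 9.18 and 9.39 in these, and between 6.42 and 8.62 in the other 12. miR-8117 stood at 11.21, 10.79, 10.74 and 10.32, and no higher than 10.02 elsewhere. The 4 arrays come from 3 groups, unevenly: 2 of the 4 mice of DMM at 6 weeks are among them and no mouse of DMM at 1 week. The mean of miR-7005-5p was 8.30 in DMM bone at 6 weeks and 7.55 at 1 week.

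The same pattern ran through rows that are not members. A score was taken as the first principal component of the deviations of the 16 bone arrays from their group means, over 261 rows outside the members with values in both tissues; it held 62.0% of that variance. It was -9.76, -10.49, -10.30 and -8.15 in the 4 arrays named above and between -4.04 and 8.19 in the other bone arrays. Its mean was -5.19 in DMM bone at 6 weeks, -0.14 in DMM bone at 1 week, -3.84 in sham bone at 6 weeks and 0.75 in sham bone at 1 week. The 10 widest members correlated with it at r between -0.94 and -0.83 over the 16 arrays. In cartilage, with the same weights, the score ran from -1.61 to 0.64 after DMM and from 3.89 to 4.64 after sham at 1 week, and from 0.72 to 3.39 and from 5.17 to 6.18 at 6 weeks, so operation and score cannot be told apart there. Nor can time and score, since within each operation the scores of the weeks did not overlap.

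In cartilage at 1 week, members higher after DMM outnumbered those lower by far. With limma on all 438 cartilage rows and Benjamini-Hochberg adjustment, 19 of 120 members passed an adjusted p of 0.05, 17 higher and 2 lower. Over all rows 27.9% passed, 15.8% higher and 12.1% lower. The members' shares were thus 14.2% higher and 1.67% lower, where 52 and 51 of the 318 other rows passed. The median difference was 0.07 over the members and -0.02 over all rows; with each array centred on its 75th percentile they were -0.02 and -0.11. The rises were modest, from 0.31 to 1.13 on the log2 scale, and for reference the rows left out by the rule, miR-6931-5p and miR-6348, differed by 2.59 (SE 0.21) and 1.14 (SE 0.24).

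**Figure D3:**
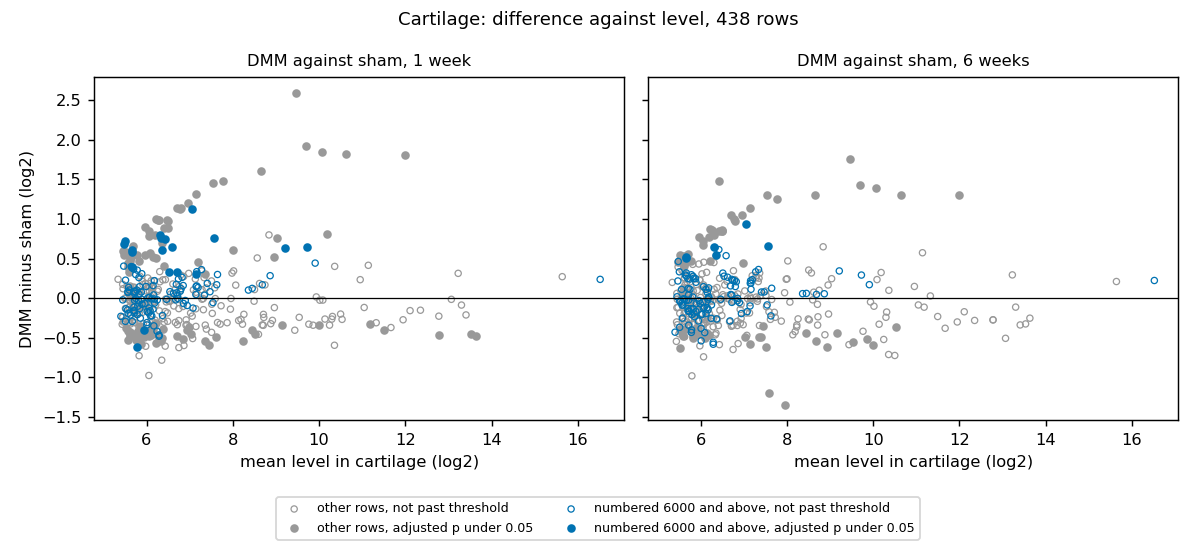
DMM minus sham difference (log2) against mean cartilage level for all 438 rows at 1 week (left) and 6 weeks (right); blue points are the 120 miRNAs numbered 6000 and above, grey points the other rows, filled points passed an adjusted p of 0.05. Of the filled blue points 17 lie above 0 and 2 below at 1 week, and all 6 lie above 0 at 6 weeks.

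miR-6918-5p had the largest rise. It stood at 7.60, 7.60 and 7.87 in the DMM pools and at 6.68, 6.47 and 6.53 in the sham pools at 1 week, a difference of 1.13 (SE 0.26, a fold of 2.19, limma adjusted p = 0.00962). The 3 DMM pools were all above the 3 sham pools, as for 35 of the 120 members and 109 of all 438 rows. miR-7118-5p stood at 8.17, 7.74 and 8.03 after DMM and at 7.25, 7.16 and 7.26 after sham, a difference of 0.75 (SE 0.13, adjusted p = 0.00231). miR-8110, printed above with its run of G, stood at 10.04, 10.06 and 10.03 after DMM and at 9.40, 9.43 and 9.35 after sham, the tightest groups of the 3. Its difference was 0.65 (SE 0.11, adjusted p = 0.00231). These 2 had the smallest adjusted p of the members.

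The other rises ran from members near the bottom of the table up to miR-6769b-5p. miR-6904-5p rose by 0.80, miR-7682-3p by 0.77, miR-7218-5p by 0.75, miR-6546-5p by 0.72, miR-6959-5p by 0.68 and miR-8095 by 0.65. miR-6769b-5p, among the 6 highest members in cartilage, rose by 0.63, and miR-7030-5p, miR-7082-3p and miR-7038-5p rose by 0.61, 0.61 and 0.58. The remaining 4 rises lay between 0.31 and 0.40. miR-6546-5p and miR-6959-5p are near the bottom of the table, with sham means of 5.21 and 5.16. The 2 that were lower were also dim. In neither did the groups overlap, but all DMM pools were below all sham pools for 15 of the 120 members and 102 of all 438 rows. miR-6954-5p stood at 5.67, 5.71 and 5.64 after DMM and at 6.25, 5.96 and 6.64 after sham (difference -0.61, SE 0.21, limma adjusted p = 0.0476). miR-6972-5p stood at 5.79, 5.66 and 5.69 against 6.00, 6.10 and 6.24 (difference -0.40, SE 0.11, adjusted p = 0.0167). The next smallest p among lower members was that of miR-7653-5p, which did not pass (-0.48, SE 0.22, limma adjusted p = 0.126).

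Of the 17 that rose, 13 of the 16 with a sequence held GGG (81.25%), against 63 of the 88 other cartilage members with a sequence (71.6%). None of the 16 ended in AG, against 17 of the 88 (19.3%). The median G content of the 16 was 47.6%, against 45.5% of the 88, and the median U content was 24.9% against 14.8%. Across the 104 members the difference at 1 week had r = 0.01 with G content, 0.29 with U content and -0.35 with A content, and at 6 weeks -0.11, 0.26 and -0.32, as descriptions. The comparisons at both weeks come from different arrays.

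Without DMM pool 3 of 1 week 4 members passed, and without sham pool 3 of 1 week 10; miR-6546-5p, miR-6769b-5p, miR-7118-5p and miR-8110 passed whichever of the 12 cartilage arrays was left out. With the score described above as a covariate no member passed, and 1 had an unadjusted p under 0.05. In cartilage the score cannot be told apart from the operation. The shares over all rows in these fits are not given here, so the counts are no result about the members in particular.

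At 6 weeks 6 of 120 members were higher after DMM in cartilage and none lower, where 16.9% of all rows passed, 9.59% higher and 7.31% lower. All 6 were among the 17 of 1 week. miR-7118-5p was the clearest: 7.90, 8.03 and 7.66 after DMM against 7.23, 7.21 and 7.16 after sham, a difference of 0.66 (SE 0.13, adjusted p = 0.00643). miR-6918-5p stood at 7.27, 7.83 and 7.26 against 7.24, 6.31 and 6.01 (difference 0.93, SE 0.26, adjusted p = 0.0303). Sham pool 1 of 6 weeks, at 7.24, lay just under the lowest DMM pool. miR-6904-5p stood at 6.47, 6.88 and 6.43 against 6.47, 5.86 and 5.51 (difference 0.64, SE 0.20, adjusted p = 0.0464), and here sham pool 1 overlapped the DMM pools. miR-7082-3p differed by 0.55 (SE 0.17), miR-7038-5p by 0.52 (SE 0.14) and miR-7030-5p by 0.50 (SE 0.14), with adjusted p of 0.0472, 0.0250 and 0.0309. In each, sham pool 1 was the highest sham pool. With limma, 3 members (2.5%) were lower at an unadjusted p under 0.05, and none of them passed. Over all rows 20.8% were lower at that p. The 3 were miR-6972-5p (-0.29, SE 0.11, adjusted p = 0.0734), miR-7653-5p (-0.56, SE 0.22, adjusted p = 0.0892) and miR-6906-5p (-0.38, SE 0.16, adjusted p = 0.0976).

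**Figure D4:**
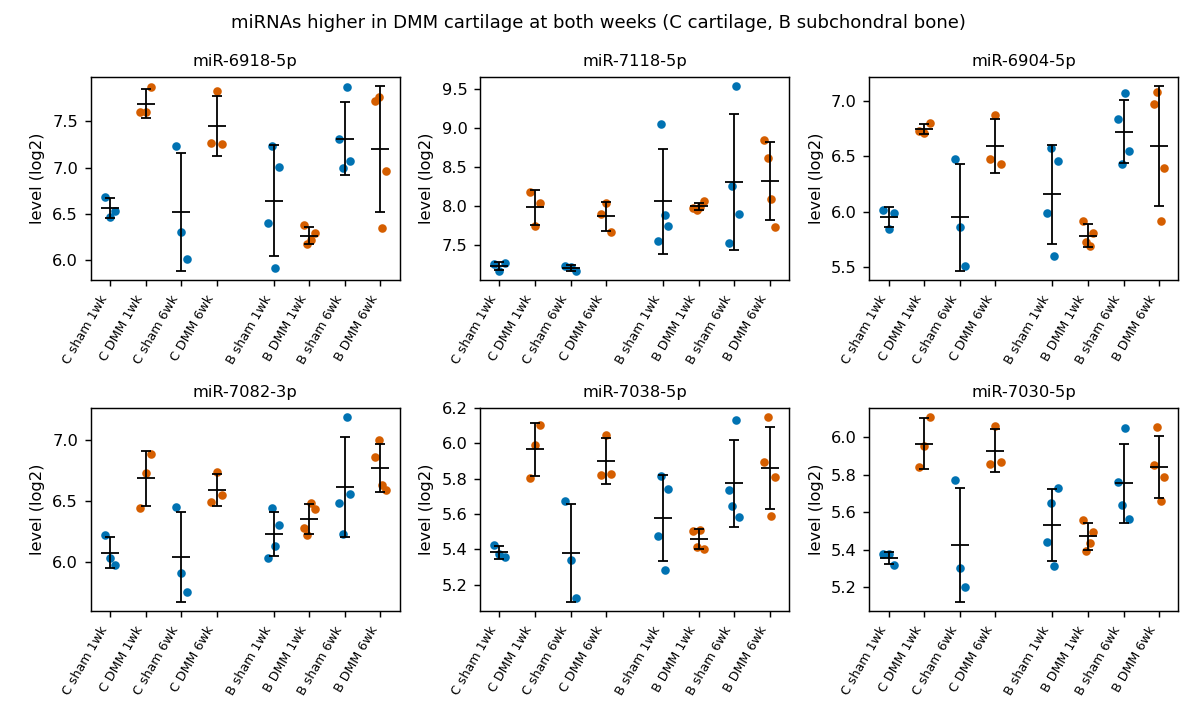
Log2 level on each array for the 6 miRNAs higher after DMM in cartilage at both weeks; C marks cartilage pools (3 per group) and B bone mice (4 per group), blue sham and orange DMM, with mean and SD in black. In cartilage the DMM points lie above the sham points at 1 week, as for 109 of all 438 rows. At 6 weeks sham pool 1 (leftmost blue point) lies near or among the DMM pools in all but miR-7118-5p. In bone the groups overlap.

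Sham pool 1 of 6 weeks correlated least with the other arrays of its group (mean r 0.97 over all rows and 0.92 over the members, against group medians of 0.99 and 0.98). Leaving it out gave 37 members past the threshold, 21 higher and 16 lower, while leaving out DMM pool 2, sham pool 2 or sham pool 3 of 6 weeks left 1, miR-7118-5p, and leaving out DMM pool 1 left 3. The shares over all rows in these fits are not given here. The counts thus show how far the calls depend on single pools, and are no result about the members in particular. The log2 of the summed signals of the 2 measured erythroid miRNAs was 8.50 to 10.18 in the 6-week sham pools and 7.75 to 8.55 in the DMM pools. That of 3 leukocyte miRNAs was 8.64 to 9.79 against 8.00 to 8.52; at 1 week both lists overlapped between the operations. The cartilage list (4 measured) overlapped at 1 week, but at 6 weeks it was 13.61 to 13.85 after DMM and 13.99 to 14.06 after sham, without overlap. The muscle list (4 measured) and the endothelial list (1 measured) overlapped between the operations at both weeks, at 7.51 to 9.27 and 5.20 to 7.24 over all cartilage pools. Their part in the differences of the members was not tested. In bulk tissue fewer cells of a type and less RNA per cell cannot be told apart.

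No change of the DMM difference between the weeks was detected. Of the 120 members none passed in the test of that change (0% of all rows passed, with limma). An unadjusted p under 0.05 was found for 1 member (0.833%, against 2.97% of all rows). It was miR-8110, whose difference was 0.36 smaller at 6 weeks than at 1 week (SE 0.15, adjusted p = 0.999). All 17 members that rose at 1 week had positive differences at 6 weeks, from 0.22 to 0.93. These comparisons share no arrays.

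Another set of members differed between the weeks. In DMM cartilage 6 members were lower at 6 weeks than at 1 week and none higher, where 4.79% of all rows passed, 2.28% higher and 2.51% lower; they made up 6 of the 11 rows that were lower. miR-6969-5p fell from 8.71, 8.64 and 8.10 to 7.47, 6.79 and 5.98 (difference -1.74, SE 0.40, limma adjusted p = 0.0316). The 6-week pools lay far apart from each other. All of them were below the 1-week pools, as for 28 of the 120 members and 57 of all 438 rows. miR-8090 fell from 6.54, 6.55 and 6.44 to 5.87, 5.47 and 5.18 (-1.01, SE 0.21, adjusted p = 0.0220). miR-8117 fell from 8.12, 7.91 and 7.82 to 7.30, 7.22 and 6.69 (-0.88, SE 0.17, adjusted p = 0.0169). miR-7042-5p differed by -0.86 (SE 0.19), miR-7008-5p by -0.61 (SE 0.14) and miR-6898-5p by -0.45 (SE 0.11), with adjusted p of 0.0295, 0.0316 and 0.0330. The median difference was -0.13 over the members and -0.06 over all rows.

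**Figure D5:**
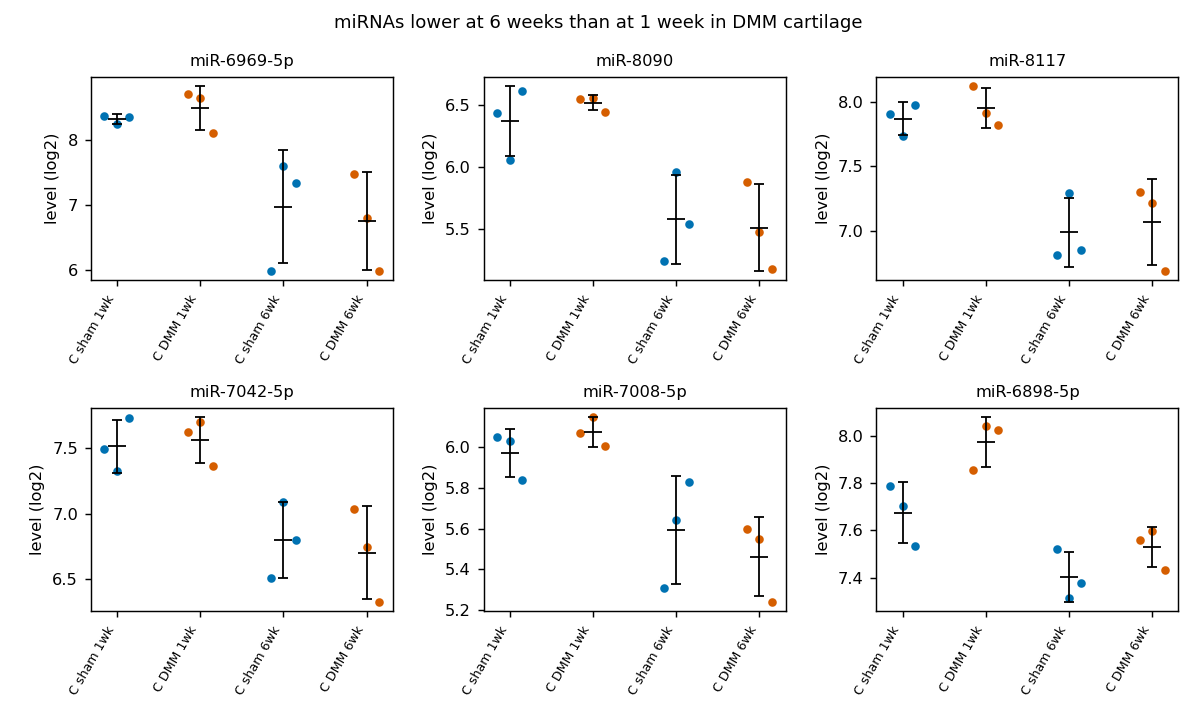
Log2 level in each cartilage pool for the 6 miRNAs lower at 6 weeks than at 1 week after DMM, with sham pools in blue, DMM pools in orange, and mean and SD in black. The 6-week pools lie below the 1-week pools after DMM, as for 57 of all 438 rows, and the sham means differ the same way.

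The sham cartilage gave differences of the same sign without passing the test. With limma none of the 120 members passed between sham at 6 weeks and sham at 1 week, where 0.228% of all rows did. An unadjusted p under 0.05 was found for 22 members (18.3%), close to the 17.6% of all rows (77 of 438). Of the 22, 18 were lower at 6 weeks (15% of the members), where 36 of all rows were (8.22%). The log2 of the summed signals of the 2 erythroid miRNAs was 7.41 to 8.27 in the 1-week sham pools and 8.50 to 10.18 in the 6-week sham pools, without overlap. In the same order, the leukocyte list (8.27 to 8.78 and 8.64 to 9.79) and the cartilage list (13.94 to 14.22 and 13.99 to 14.06) overlapped. So did the muscle and endothelial lists. The part of the lists in these differences was not tested. The smallest p belonged to miR-8117 (-0.88, SE 0.17, adjusted p = 0.0612) and miR-8090 (-0.79, SE 0.21, adjusted p = 0.109). For miR-6969-5p the sham difference was -1.35, for miR-7042-5p -0.72, for miR-7008-5p -0.38 and for miR-6898-5p -0.27. Sham pool 1 of 6 weeks stood apart here: miR-6969-5p was at 5.98 in it and at 7.59 and 7.33 in the other pools. Without it the sham difference was -0.85 for miR-6969-5p and -0.24 for miR-7008-5p. The change of the DMM effect between weeks, which is the difference between these time differences with all pools in, was between -0.39 and 0.00 for the 6 and passed for none. Of the 6, miR-6969-5p, miR-7042-5p and miR-8117 are also among the 10 widest members in bone, while miR-7008-5p and miR-8090 have no values there. Leaving out DMM pool 3 of 6 weeks or DMM pool 2 of 1 week left none past the threshold in DMM cartilage. Leaving out DMM pool 1 or 3 of 1 week or DMM pool 2 of 6 weeks left 1, and leaving out sham pool 2 of 1 week left 3. For these fits the shares over all rows are not given, so the counts are no result about the members in particular.

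In bone no member passed in any comparison, and no other row did either (0% of 490 rows in each, limma). Between DMM and sham, no member had an unadjusted p under 0.05 at 1 week or at 6 weeks; over all rows 3 and 2 did. The differences of the members lay between -0.43 and 0.46 at 1 week and between -0.39 and 0.62 at 6 weeks, with a median SE of 0.21. The smallest p at 1 week were those of miR-7047-3p (0.34, SE 0.21), miR-6351 (-0.37, SE 0.23) and miR-7050-5p (-0.29, SE 0.19), each with an adjusted p of 0.999. At 6 weeks they were those of miR-6984-3p (0.54, SE 0.29), miR-6368 (0.26, SE 0.15) and miR-6929-3p (0.62, SE 0.37), each with an adjusted p of 0.998. Without the 4 bone arrays that stand apart, 1 member at 1 week and 19 at 6 weeks had an unadjusted p under 0.05, and none passed. The share over all rows in that fit is not given here. In it miR-6984-3p and miR-6929-3p differed by 1.12 and 1.34 at 6 weeks (limma adjusted p = 0.601 and 0.603). None of the 143 members had an unadjusted p under 0.05 for a change of the DMM effect between the weeks.

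Between the weeks, 22 of 143 members (15.4%) had an unadjusted p under 0.05 after DMM in bone, all of them higher at 6 weeks. After sham 8 did (5.59%), also all higher. Over all 490 rows 71 (14.5%) were higher at that p after DMM and 36 (7.35%) after sham, and 24 and 18 were lower. The members with the smallest p after DMM were miR-6904-5p (0.81, SE 0.26, adjusted p = 0.212) and miR-6918-5p (0.93, SE 0.32, adjusted p = 0.212). miR-6918-5p stood at 6.37, 6.17, 6.22 and 6.30 in the 1-week DMM mice and at 6.34, 6.96, 7.72 and 7.77 in the 6-week DMM mice, so the groups overlapped by 1 mouse. The 7.72 and 7.77 are those of mice 21 and 25. In a fit chosen after seeing the data, without the 4 bone arrays named above, 2 members instead of 22 had an unadjusted p under 0.05 after DMM and 23 instead of 8 after sham. For that fit too the shares over all rows are not given. The differences of miR-6904-5p and miR-6918-5p after DMM were 0.37 and 0.39 in it (limma adjusted p = 0.777 and 0.785). After sham, in the fit with all bone arrays, the members with the smallest p were miR-6971-5p (0.43, SE 0.17) and miR-6409 (0.43, SE 0.18), each with a limma adjusted p of 0.414.

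The 17 members that rose in cartilage at 1 week all had values in bone. Their DMM differences in bone had a median of -0.06 at 1 week (range -0.38 to 0.25, 6 positive and 11 negative) and 0.09 at 6 weeks (range -0.17 to 0.28). The difference between the tissues' DMM effects was tested over the 359 shared rows, treating the tissues as independent. None of the 98 members passed at 1 week, where 0.279% of the rows did, or at 6 weeks, where 0.557% did. At 1 week 11 members (11.2%) had an unadjusted p under 0.05, all with the larger effect in cartilage. Over all shared rows 59 (16.4%) did, 47 of them (13.1%) in this direction. Of the 11 members, 8 were among the 17. The 17 were chosen for a rise on these same cartilage arrays, so that overlap was largely fixed in advance. The largest difference was that of miR-6918-5p, with 1.50 (SE 0.46, limma adjusted p = 0.156), and the smallest p was that of miR-6546-5p, with 0.90 (SE 0.24, adjusted p = 0.156). At 6 weeks 3 members (3.06%) had an unadjusted p under 0.05, against 3.62% of the shared rows. They were led by miR-6918-5p (1.05, SE 0.46, adjusted p = 0.772) and miR-6904-5p (0.78, SE 0.36, adjusted p = 0.772). Without the 4 bone arrays that stand apart none passed at either week, and 13 and 19 had an unadjusted p under 0.05, with no share over all rows given for that fit. A larger effect in cartilage than in bone was therefore not shown for these miRNAs.

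The 17 also varied together in bone, where they were not chosen. After removal of the group means, the median correlation over the 16 bone arrays was 0.67 between pairs of the 17 (136 pairs). It was 0.21 between pairs of all 143 members and 0.28 between pairs of the 81 other members measured in both tissues. These are descriptions over shared arrays. The correlation of the 17 with the score had a median of -0.58 and was negative for each (range -0.94 to -0.21). For the 81 the median was -0.56, with both signs (range -0.94 to 0.91). The 17 were chosen for 1 direction of change in cartilage, and the 81 were not. The part of the score in the pair correlations was not tested. The median within-group SD in bone was 0.28 for the 17, against 0.26 for the 81.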

How the data were processed

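Per the labels, 70 ng of total RNA per sample was labelled and hybridized to single-colour Agilent arrays. The deposited values are on a log2 scale, which was read from their range, and the submitters' processing notes name limma 3.20.9; for normalization, background correction and row filters, the labels give no method. Cartilage and bone values come as separate sets of rows and were fitted apart. A group-means model was fitted with limma 3.58.1 (R 4.3.3) to all rows of a tissue, with moderated tests, Benjamini-Hochberg adjustment over all rows and a threshold of 0.05. The effect in cartilage minus that in bone was fitted on the shared rows of all 28 arrays. The fit was checked on simulated data. Differences are named where they passed (at most 12 per direction between operations, 5 between times), or otherwise for the smallest p; miR-7038-5p at 1 week and miR-6898-5p between the weeks lie outside this rule and were added after their values were seen. The members and lists were chosen with earlier results of these data known. Cartilage arrays are pools of separate mice and bone arrays separate mice. The number of arrays limits the precision. Alternatives were other centrings, quantile normalization, a filter on low levels, array weights, the bone score as a covariate, a replicate block, fits of the compared groups alone and each array left out; a fit without 4 bone arrays that stand apart was added after seeing the data.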

Additional observations from a re-analysis of the deposited data

Results flagged for a closer look

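For 29 members named with a result in bone and for the members' median on each array, the 4 bone groups (120 sets of 4 mice) were searched for an array far from the other 3, by its gap to the nearest of them over the range of the set against Dixon's critical value. Chance gives about 1 such array in 20 sets, and 6 were found, all in sham bone. At 6 weeks, mouse 12 had a low miR-6366 of 15.06, where the other mice had 16.44 to 16.48 (ratio 0.971). The same mouse had a low miR-6368 of 9.11, against 9.26 to 9.28 (ratio 0.893). At 6 weeks, mouse 22 had a high miR-6959-5p of 5.72, against 5.34 to 5.38 (ratio 0.913), and a high miR-7034-5p of 6.30, against 5.80 in the others (ratio 0.991). At 1 week, mouse 68 had a high miR-6386 of 6.31, against 4.89 to 5.13 (ratio 0.833), and a high miR-6909-5p of 7.09, against 4.78 to 5.02 (ratio 0.895). Mice 22 and 68 are among the 4 bone arrays in which the widest members were highest. Their part in these values was not tested.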

How the results depend on the processing

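Of the differences of named members under alternatives, 958 kept their direction and side of the threshold, 183 no longer passed, 12 newly passed and 1 changed sign: the change of the DMM effect between weeks of miR-7668-3p in bone, not past the threshold, went from 0.60 to -0.015 without the 4 bone arrays of lowest score. The members' median difference between operations in cartilage also changed sign with centring on the 75th percentile, from 0.07 to -0.02 at 1 week and from 0.02 to -0.02 at 6 weeks. In cartilage, DMM against sham at 1 week gave 19 members, 10 without the rows below the median level, 31 with array weights, 0 with the bone score as a covariate and 4 to 25 with an array left out. At 6 weeks it gave 6 members, 39 with array weights, 1 in a fit of the compared groups alone, 0 with the score and 1 to 37 with an array left out. DMM at 6 weeks against 1 week gave 6 members, 3 without the low rows, 0 with the score and 0 to 8 with an array left out. Sham at 6 weeks against 1 week gave 0, 16 with array weights and 0 to 1 with an array left out. With array weights, the bone comparisons gave 8 (DMM against sham, 1 week), 20 (6 weeks), 30 (sham, 6 weeks against 1 week) and 79 (DMM, 6 weeks against 1 week), and the effect in cartilage minus bone gave 11 at 1 week and 17 at 6 weeks; for bone and for both tissues together the weights did not fully converge. The cause was not tested. Shares over all rows are not given here for these alternatives, so their counts are no result about the members in particular. Cartilage pools with the same number did not deviate together as a set (median r -0.25 over 18 pairs, range -0.49 to 0.44, and 0.06 over 36 other pairs). With 3 pools per group this check cannot exclude a pairing by number. With the number as a replicate block, 15 members passed at 1 week, 1 at 6 weeks and 1 for DMM at 6 weeks against 1 week. No bone groups share numbers.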
